A study of Mus musculus with 35 samples.

Results

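Pik3ca, Pik3cb, Pdpk1, Akt1, Map2k1, Map2k2 and Mapk3 encode protein and lipid kinases of the PI3K-AKT and RAF-MEK-ERK pathways. They were taken by name as core kinases of both cascades; the rule itself uses no measured value, but it was set with earlier results of these data known. They make up 7 of the 24421 genes in the count tables, and all 7 passed the filter on low counts in the populations and in the clones. The members are measured here as mRNA, and neither protein amount nor kinase activity was part of these data.

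PI3K is a lipid kinase made of a catalytic and a regulatory subunit; Pik3ca and Pik3cb encode the alpha and beta catalytic subunits. Its product recruits the kinases PDK1 (Pdpk1) and AKT1 (Akt1) to the membrane, where PDK1 phosphorylates AKT1. In the parallel cascade a RAF kinase phosphorylates MEK1 (Map2k1) and MEK2 (Map2k2), which in turn phosphorylate ERK1 (Mapk3) and its close relative, and both cascades carry growth factor signals in fibroblasts. NELFB is a subunit of the negative elongation factor, the complex that holds RNA polymerase II in its paused state near promoters.

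All 35 libraries came from immortalized mouse embryonic fibroblasts (MEFs) of the genotype Nelfb flox/-, so every group, controls included, carried 1 null and, before Cre, 1 floxed Nelfb allele. The cells were grown in DMEM with 10% FBS. In 20 libraries the cells were populations that carried a pLenti construct, either empty vector (EV), wild-type NELFB (WT), the mutants MT194 or MT486, or the double mutant that combines both (DMT), and that were harvested 7 days after an adenovirus encoding Cre (Ad-Cre) or GFP alone (Ad-GFP). Each of the 10 combinations of construct and virus had 2 libraries, from 2 independent experiments. MT194 no longer binds NELFA and NELFC, and MT486 no longer binds NELFE. The other 15 libraries were single clones isolated after Ad-Cre, 3 each of WT, MT194 and MT486 in pLenti and of WT(N48) and Δ-C60, a C-terminal truncation, in pBabe. Each clone is 1 isolate, so a clone group holds 3 isolates of 1 starting cell line. Within a construct, an effect of Cre itself cannot be told apart from an effect of losing the floxed allele.

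Depth ranged from 17969149 to 29080007 reads on genes in the populations and from 18413284 to 27816723 in the clones. Levels are given as CPM, the read count of a gene divided by the library's reads on genes and put on a common scale with TMM factors. Reads on a member ranged from 363 (Pik3cb in an Ad-GFP library of MT486) to 13646 (Akt1 in a Δ-C60 clone). The 12 fibroblast markers that stand for the MEF label summed to between 10630 and 26672 CPM in the populations, with Col1a1 the most abundant at a median of 5582 CPM. Of the epithelial, endothelial, leukocyte, pluripotent and muscle lists, none summed to more than 14.1 CPM in a population. In the clones the fibroblast markers summed to between 5159 CPM (clone 3 of the libraries labeled WT) and 14868 CPM.

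The members lie on 6 chromosomes of GRCm38 (mm10). Pik3ca is at chr3:32397671-32468486 on the plus strand and Pik3cb at chr9:99036654-99140621 on the minus strand. Map2k1 is also on chromosome 9, at chr9:64185770-64253631 on the minus strand, and Map2k2 is at chr10:81105915-81133975 on the plus strand. Pdpk1 is at chr17:24073680-24150924 and Akt1 at chr12:112653821-112674884, both on the minus strand, while Mapk3 is at chr7:126759601-126765819 on the plus strand. No member shares an exonic base with another annotated gene. Of all 50-base stretches in the Pik3cb transcript, 5.80% also occur in transcripts of 1 locus on another chromosome, the processed pseudogene Gm12978 or the transcript Gm12992 that overlaps it. The effect of these stretches on the Pik3cb counts was not tested. For each of the other members the share was at most 0.361%, and between Map2k1 and Map2k2 only 7 stretches were identical.

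The 250 bases upstream of the RefSeq start (GRCm38.p6) are shown for Pik3cb and Map2k1, the members called higher with Ad-Cre in the fit without a replicate block, and for their relatives Pik3ca and Map2k2, which were called higher in no construct in either fit. Each is written 5′ to 3′ on the strand of the gene, and capitals mark matches on either strand to common promoter motifs, which are spelled out after the sequences.
Pik3cb: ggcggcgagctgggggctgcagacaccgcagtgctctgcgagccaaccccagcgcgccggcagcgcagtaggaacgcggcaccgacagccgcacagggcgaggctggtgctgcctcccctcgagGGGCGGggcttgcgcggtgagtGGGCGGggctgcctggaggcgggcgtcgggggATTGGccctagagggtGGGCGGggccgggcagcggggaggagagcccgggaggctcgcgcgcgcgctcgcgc
Map2k1: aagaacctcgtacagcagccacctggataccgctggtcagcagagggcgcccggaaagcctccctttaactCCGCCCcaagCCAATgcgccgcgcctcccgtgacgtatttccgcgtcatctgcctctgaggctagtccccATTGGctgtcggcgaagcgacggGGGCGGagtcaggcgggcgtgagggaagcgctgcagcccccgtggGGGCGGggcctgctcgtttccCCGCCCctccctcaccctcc
Pik3ca: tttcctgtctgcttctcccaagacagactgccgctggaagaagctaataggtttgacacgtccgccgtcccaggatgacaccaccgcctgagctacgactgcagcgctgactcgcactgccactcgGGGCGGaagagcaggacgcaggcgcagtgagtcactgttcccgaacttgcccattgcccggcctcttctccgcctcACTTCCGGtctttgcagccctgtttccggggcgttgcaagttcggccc
Map2k2: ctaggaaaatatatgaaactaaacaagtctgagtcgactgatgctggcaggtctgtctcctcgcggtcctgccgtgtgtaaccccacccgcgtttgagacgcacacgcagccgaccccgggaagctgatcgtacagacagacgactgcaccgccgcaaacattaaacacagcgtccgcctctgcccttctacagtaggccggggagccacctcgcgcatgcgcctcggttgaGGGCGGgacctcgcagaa
These windows are chr9:99140212-99140461 and chr9:64253606-64253855 (minus strand), and chr3:32396815-32397064 and chr10:81105665-81105914 (plus strand). The Pik3cb window is 78% G or C with 32 CpG dinucleotides and holds 3 GC boxes (GGGCGG) and 1 CCAAT box (the letters of its name), and the Map2k1 window is 68.4% G or C with 24 CpG and holds 4 GC boxes and 2 CCAAT boxes. The Pik3ca window (61.6% G or C, 19 CpG) holds 1 GC box and 1 match to the ETS motif (CCGGAAGT), and the Map2k2 window (59.6%, 23 CpG) holds 1 GC box. None of the 4 windows has a match to the TATA box (TATAAA), the CRE (TGACGTCA) or the FOXO motif (GTAAACA). Among 32851 RefSeq promoter windows of the same length, 32.7% hold the GC box, 33.8% the CCAAT box, 12.4% the TATA box, 2.88% the ETS motif, 1.55% the CRE and 3.17% the FOXO motif, and the median window is 52.4% G or C with 6 CpG. All 4 windows are thus richer in CpG than the median promoter, and the matches are descriptions of the sequence only. A promoter entry was found for 6 of the 7 members, with none used for Mapk3.

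Nelfb was examined first, since it reports on the deletion and on the ectopic constructs. In EV populations Nelfb was at 46.1 and 39.5 CPM with Ad-GFP and at 8.0 and 5.5 CPM with Ad-Cre, a log2 fold change of −2.67 (SE 0.22; edgeR quasi-likelihood adjusted p = 2.53e-05). In WT populations it was at 97.5 and 82.8 CPM with Ad-GFP and at 75.9 and 60.5 CPM with Ad-Cre, and the difference was not called (log2 fold change −0.40, SE 0.20, adjusted p = 0.822). In DMT it was at 73.5 and 61.6 CPM with Ad-GFP and at 168.6 and 208.3 CPM with Ad-Cre, and was called higher (1.48, SE 0.20, adjusted p = 0.000555). In MT194 it was at 74.0 and 62.1 against 103.8 and 118.5 CPM with Ad-Cre (0.71, SE 0.20, adjusted p = 0.0637). In MT486 it was at 92.9 and 78.6 against 116.0 and 127.9 CPM with Ad-Cre (0.51, SE 0.20, adjusted p = 0.234). Neither of these 2 differences was called. The pLenti constructs carry flag-tagged mouse NELFB in a CMV vector, so reads from ectopic and endogenous Nelfb cannot be told apart. Nelfb was thus low where Ad-Cre met the empty vector, as that label says, but in the other constructs its level shows neither deletion of the floxed allele nor which mutant was carried.

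Per kilobase of annotated exon, the members spanned a wide range of levels in the EV populations with Ad-GFP. Mapk3 (55.0 ± 9.2 RPKM, SD, n = 2) and Akt1 (50.3 ± 10.1) were the highest and did not differ beyond their spread. Map2k1 followed at 26.5 ± 5.9 RPKM and Map2k2 at 13.8 ± 2.3, with Pik3ca at 10.6 ± 1.3 and Pdpk1 at 9.4 ± 1.1. Pik3cb was the lowest at 3.3 ± 0.5 RPKM. These levels and their order depend on the length used. Map2k2 has 5663 bases of annotated exon but 2405 in the transcript used above for shared stretches, and Pdpk1 has 10935 and 7161. Levels per transcript length were not computed.

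The comparison of Ad-Cre with Ad-GFP within each construct asked whether expression differed 7 days after the virus, and in which constructs. Of the kinase genes, Pik3cb and Map2k1 were called higher with Ad-Cre without the replicate block, and Akt1 (EV, MT194 and DMT) and Pdpk1 (EV) were also called higher with it, by smaller fold changes. In EV populations, 2 of the 7 members were called at an adjusted p under 0.05 (Pik3cb and Map2k1, both higher), where 13.0% of all 13805 genes tested were called. In WT populations no member was called, where 0.0217% of genes, or 3, were called; 859 genes had an unadjusted p under 0.05 and DESeq2 called 78, with no member among them. One member was called in MT194 and 1 in MT486, Pik3cb in both, against 4.49% and 2.54% of genes, and 2 in DMT, Pik3cb and Map2k1, against 10.8%. In bulk RNA, a change in the make-up of the cells and a change per cell cannot be told apart. The 12 fibroblast markers summed to 15185 and 20637 CPM in EV with Ad-GFP and to 11664 and 16456 CPM with Ad-Cre, lower with Ad-Cre in both experiments, and the part of this in the members' levels was not tested.

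Libraries with the same replicate number, which come from 1 experiment, deviated from their group means together, so each comparison was also fitted with the experiment as a block. With the block, 43.0% of genes were called in EV, 5.61% in WT, 26.7% in MT194, 23.2% in MT486 and 40.7% in DMT. The members called were then 4 in EV, 1 in WT, 4 in MT194, 2 in MT486 and 3 in DMT. The blocked shares of all genes are high, and the members' counts are to be read against them.

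**Figure D1:**
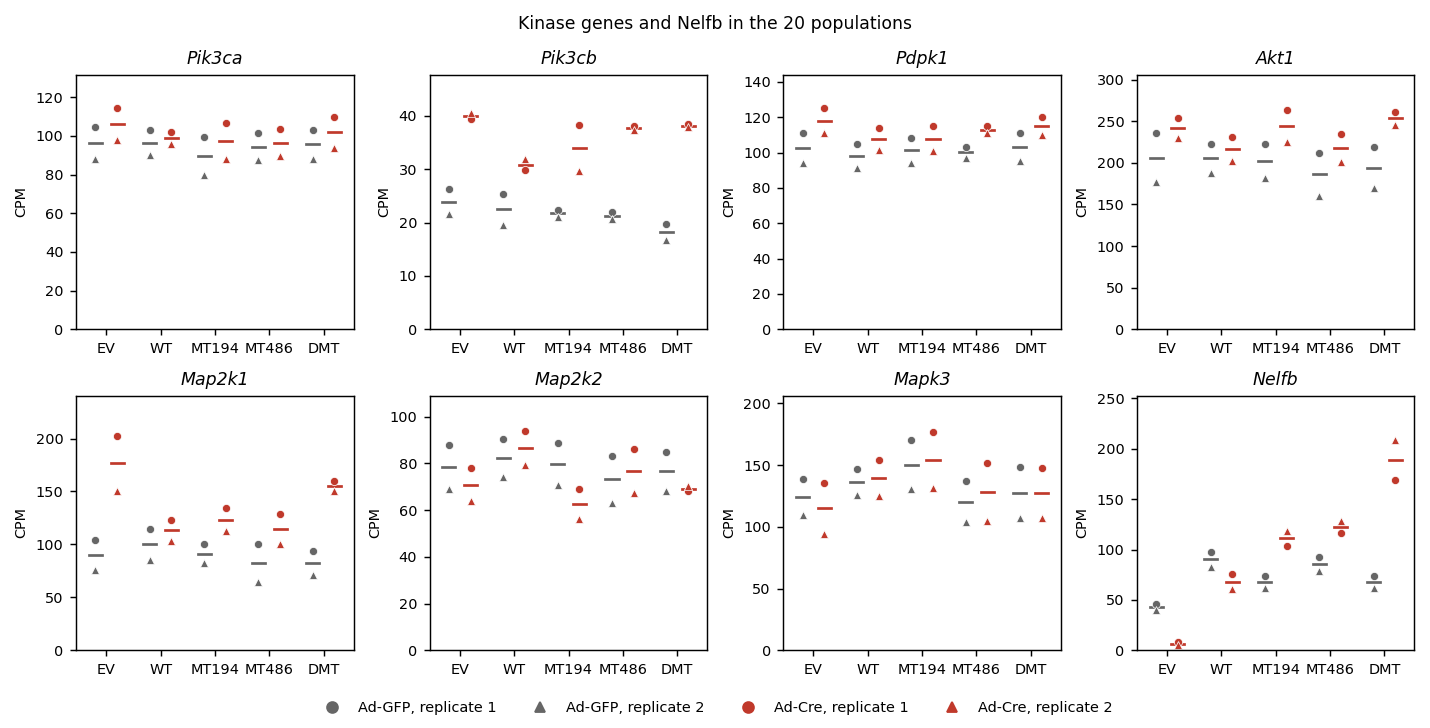
Levels of the 7 kinase genes and Nelfb in the 20 populations, in CPM on a linear axis from 0, by construct. Gray marks are Ad-GFP and red marks Ad-Cre libraries, circles replicate 1 and triangles replicate 2, and bars are means; for Pik3cb every red mark (29.7 to 40.5 CPM) lies above every gray one (16.8 to 26.3 CPM).

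Pik3cb, the beta catalytic subunit, separated the viruses in every construct. With Ad-GFP it was at 26.3 and 21.6 CPM in EV, 25.4 and 19.6 CPM in WT, 22.3 and 21.1 CPM in MT194, 21.9 and 20.7 CPM in MT486, and 19.7 and 16.8 CPM in DMT. With Ad-Cre it was at 39.5 and 40.5 CPM in EV, 29.8 and 32.0 CPM in WT, 38.3 and 29.7 CPM in MT194, 38.1 and 37.3 CPM in MT486, and 38.5 and 37.8 CPM in DMT. All 10 Ad-Cre libraries lay above all 10 Ad-GFP libraries, an arrangement seen in 1.84% of genes tested and for no other member. The order of means ran from EV with Ad-Cre (40.0 ± 0.8 CPM) through DMT (38.2 ± 0.5), MT486 (37.7 ± 0.5), MT194 (34.0 ± 6.1) and WT (30.9 ± 1.6) with Ad-Cre, and then, without overlap, to EV with Ad-GFP (23.9 ± 3.3). Among the Ad-Cre groups the values of DMT, MT486, MT194 and WT each overlapped those of the next in order, and DMT with Ad-GFP was lowest at 18.3 ± 2.0 CPM.

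The log2 fold change of Pik3cb was 0.74 in EV (SE 0.16, adjusted p = 0.00859), 0.65 in MT194 (SE 0.16, adjusted p = 0.0355), 0.82 in MT486 (SE 0.16, adjusted p = 0.0160) and 1.07 in DMT (SE 0.16, adjusted p = 0.00107). In WT it was 0.46 (SE 0.16, 95% interval 0.11 to 0.80) with an adjusted p of 0.600, and with the block it was called (0.47, adjusted p = 0.0266). The block also called Pik3cb in EV, MT194, MT486 and DMT, beside 43.0%, 26.7%, 23.2% and 40.7% of all genes. No difference between a construct's effect and that of EV was called: −0.29 for WT (interval −0.77 to 0.20), −0.09 for MT194, 0.08 for MT486 and 0.32 for DMT (interval −0.16 to 0.81). These comparisons share the EV libraries. A fit that leaves out 1 population library has 1 library in that group, so the spread comes from the other groups. The DMT call held without any 1 of its 4 libraries (adjusted p 0.00676 to 0.0240). The EV call was lost without the second Ad-Cre library (0.0576) or the second Ad-GFP library (0.0979), the MT486 call without any 1 of its 4 libraries (0.0915 to 0.130), and the MT194 call without any 1 of its libraries but the second Ad-Cre library (0.153 to 0.266), while the fold changes stayed between 0.45 and 1.18. With only the 4 libraries of a construct fitted, the Pik3cb calls in EV (0.75, adjusted p = 0.131), MT194 (0.65, adjusted p = 0.520) and MT486 (0.82, adjusted p = 0.303) were also lost at like fold changes, and without the filter on low counts the MT194 call was (0.65, adjusted p = 0.0693). Of all genes, the fits of 4 libraries called 239 in EV, 0 in MT194 and 5 in MT486. With all 20 libraries 1791, 620 and 350 were called, so these losses do not set Pik3cb apart from most genes.

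Map2k1, which encodes MEK1, was called higher with Ad-Cre in EV and DMT, and with the block also in MT194 and MT486. With Ad-GFP it was at 104.1 and 75.8 CPM in EV, 114.2 and 85.8 CPM in WT, 100.4 and 82.0 CPM in MT194, 100.7 and 64.2 CPM in MT486, and 94.0 and 71.5 CPM in DMT. With Ad-Cre it was at 202.7 and 150.9 CPM in EV, 123.2 and 103.5 CPM in WT, 134.3 and 112.6 CPM in MT194, 128.8 and 100.9 CPM in MT486, and 160.0 and 150.1 CPM in DMT. The viruses did not overlap in EV, MT194 or DMT, and they did in WT. In MT486 they all but touched, with the lower Ad-Cre library at 100.9 CPM and the higher Ad-GFP library at 100.7 CPM. By mean, EV (176.8 ± 36.6 CPM) and DMT (155.0 ± 7.0) with Ad-Cre stood apart from MT194 with Ad-Cre (123.5 ± 15.3), below which each group overlapped the next.

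For Map2k1 the log2 fold change was 0.97 in EV (SE 0.26, adjusted p = 0.0256) and 0.91 in DMT (SE 0.26, adjusted p = 0.0403). It was 0.44 in MT194 (SE 0.26, adjusted p = 0.459) and 0.48 in MT486 (SE 0.26, adjusted p = 0.451), and both were called with the block (0.44, adjusted p = 0.00302, and 0.49, adjusted p = 0.00175). In WT it was 0.18 (SE 0.26, 95% interval −0.37 to 0.74) and was called in neither fit (adjusted p = 1.00, and 0.262 with the block). The effect in WT minus that in EV was −0.79 (SE 0.36), with an unadjusted p of 0.0477 and an adjusted p of 0.417, where 0.681% of genes were called in that comparison. With the block the difference was −0.79 (SE 0.14, adjusted p = 0.00120), against 17.3% of genes called. For MT194, MT486 and DMT the difference from EV was −0.54, −0.50 and −0.07, none of them called in either fit, and in each of these comparisons 0.00724% of genes, 1 gene (Nelfb itself), was called; 444, 715 and 159 genes had an unadjusted p under 0.05, and DESeq2 called 21, 42 and 1, with no member among them. The EV call of Map2k1 was lost without the first Ad-Cre library (0.163) or the second Ad-GFP library (0.196), and the DMT call without any 1 of its 4 libraries (0.0728 to 0.277), with fold changes of 0.72 to 1.22. With only the 4 libraries of a construct both calls were lost (0.98, adjusted p = 0.134 in EV, and 0.92, adjusted p = 0.0720 in DMT), and without the filter the DMT call was (0.91, adjusted p = 0.0513). The fits of 4 libraries called 239 genes in EV and 489 in DMT, against 1791 and 1493 with all 20 libraries.

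**Figure D2:**
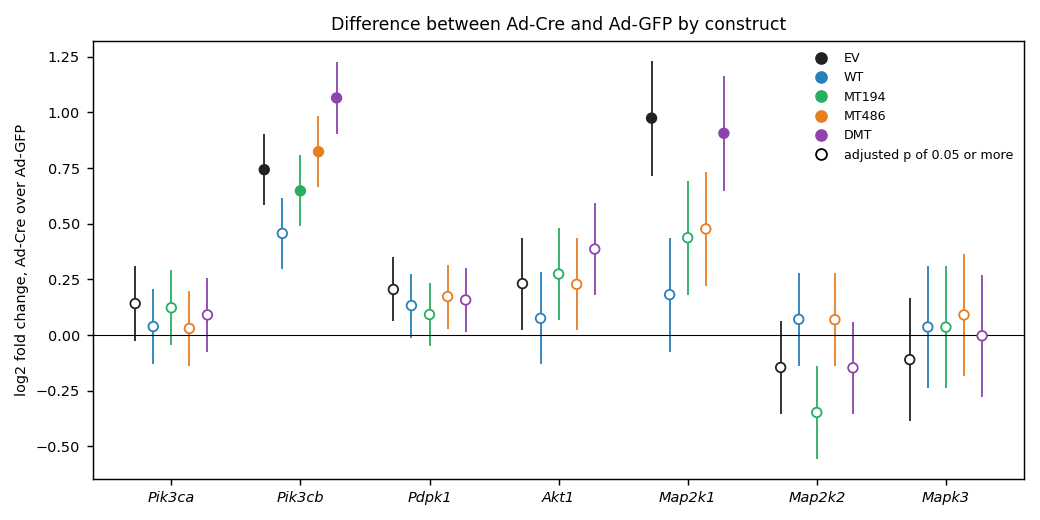
The log2 fold change of Ad-Cre over Ad-GFP for each kinase gene (y axis) in each construct (color); bars are 1 standard error of the edgeR fit and filled points have an adjusted p under 0.05. Filled points are seen for Pik3cb in EV, MT194, MT486 and DMT (0.65 to 1.07) and for Map2k1 in EV and DMT (0.97 and 0.91), and for no other member.

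Within experiments the same contrast can be read as a ratio of 2 libraries. For Pik3cb the Ad-Cre over Ad-GFP ratio was above 1 in 10 of 10 pairs and ranged from 1.17 (WT, replicate 1) to 2.25 (DMT, replicate 2), with a median of 1.73. Map2k1 was also higher in 10 of 10 pairs, from 1.08 (WT, replicate 1) to 2.10 (DMT, replicate 2), with 1.95 and 1.99 in EV and 1.34 and 1.37 in MT194. Akt1 and Pdpk1 were higher in all 10 pairs too, by smaller ratios, with medians of 1.19 and 1.11. These 4 members are among the 13.5% of genes tested that were higher with Ad-Cre in all 10 pairs. Pik3ca was higher in 9 pairs (median 1.07), Mapk3 in 6 (median 1.00) and Map2k2 in 5 (median 0.977).

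Pik3ca, the alpha catalytic subunit, lay between 79.6 and 114.3 CPM in all 20 populations. Its fold change on the log2 scale was 0.14 in EV (SE 0.17), 0.04 in WT, 0.12 in MT194, 0.03 in MT486 and 0.09 in DMT, none called with or without the block. Every one of its 10 groups overlapped the next in order of means. The levels of both catalytic subunits relative to each other therefore moved with Pik3cb. In RPKM, Pik3cb over Pik3ca was 0.318 and 0.309 in EV with Ad-GFP and 0.436 and 0.522 with Ad-Cre, and in DMT 0.242 and 0.241 against 0.444 and 0.509. In WT it was 0.312 and 0.275 against 0.368 and 0.421, and the ratio was higher with Ad-Cre in each of the 5 constructs without overlap.

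Pdpk1, which encodes PDK1, lay between 91.5 and 125.5 CPM in the populations, the smallest ratio of highest to lowest library among the members (1.37). In EV it was at 111.0 and 94.1 CPM with Ad-GFP and at 125.5 and 110.8 CPM with Ad-Cre, so the groups overlapped (log2 fold change 0.20, SE 0.14, adjusted p = 0.409), but within each experiment Ad-Cre was higher and the blocked fit called it (0.21, SE 0.07, adjusted p = 0.0225). In WT, MT194, MT486 and DMT the fold changes were 0.13, 0.09, 0.17 and 0.16, called in neither fit.

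Akt1, the AKT isoform among the members, was at 235.3 and 177.0 CPM in EV with Ad-GFP and at 254.0 and 229.9 CPM with Ad-Cre. In DMT it was at 218.4 and 169.4 CPM with Ad-GFP and at 261.4 and 245.5 CPM with Ad-Cre, which did not overlap. The log2 fold changes were 0.23 in EV (SE 0.21, adjusted p = 0.535), 0.27 in MT194 (adjusted p = 0.610), 0.23 in MT486 (adjusted p = 0.739) and 0.39 in DMT (adjusted p = 0.279), with 0.08 in WT (adjusted p = 1.00). With the block Akt1 was called in EV (adjusted p = 0.0319), MT194 (0.0250) and DMT (0.00145) but not in MT486 (0.0597) or WT (0.650). The differences of these effects from that in EV were between −0.16 and 0.16, and none was called in either fit.

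Map2k2, which encodes MEK2, did not follow Map2k1. It was at 87.8 and 69.0 CPM in EV with Ad-GFP and at 77.8 and 63.9 CPM with Ad-Cre, and in MT194 at 88.6 and 70.8 against 69.1 and 56.1 CPM. Only the MT194 value was called, and only with the block (log2 fold change −0.35, SE 0.09, adjusted p = 0.00759, against 0.472 without it). The fold changes in EV, WT, MT486 and DMT were −0.15, 0.07, 0.07 and −0.15.

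The level of Map2k1 relative to Map2k2 thus changed with Ad-Cre. In RPKM, Map2k1 over Map2k2 was 1.98 and 1.83 in EV with Ad-GFP and 4.35 and 3.94 with Ad-Cre. In DMT it was 1.85 and 1.75 against 3.92 and 3.57, and in MT194 1.89 and 1.93 against 3.24 and 3.35. MT486 reached 2.49 and 2.51 from 2.02 and 1.70. WT reached 2.19 and 2.18 from 2.11 and 1.93. Within Ad-GFP the ratio lay between 1.70 and 2.11 in all 10 libraries, and among the Ad-Cre libraries the constructs did not overlap, in the order WT, MT486, MT194, DMT and EV. This order was not tested.

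**Figure D3:**
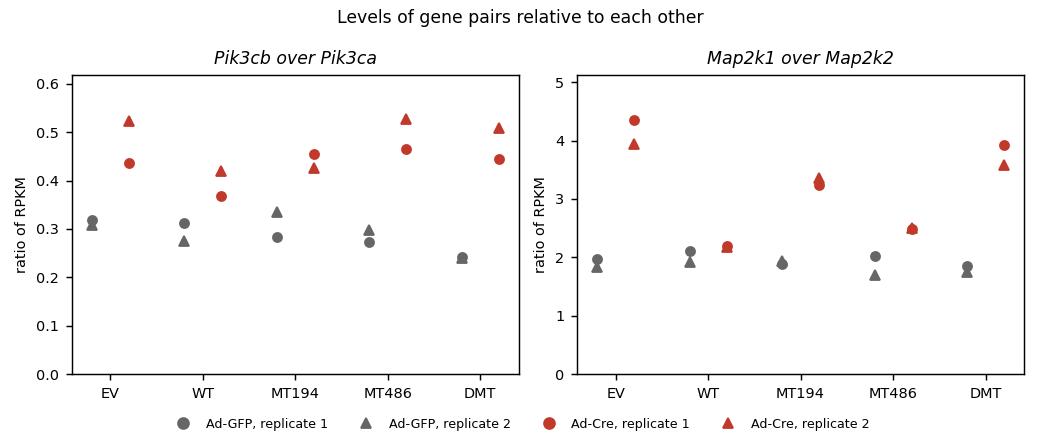
Ratios of RPKM of the related genes Pik3cb over Pik3ca (left) and Map2k1 over Map2k2 (right) in each population library, on linear axes from 0; gray marks are Ad-GFP, red marks Ad-Cre, circles replicate 1 and triangles replicate 2. On the right the Ad-GFP libraries lie between 1.70 and 2.11, and the Ad-Cre libraries run from 2.18 in WT to 4.35 in EV.

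Mapk3, which encodes ERK1, lay between 94.4 and 176.7 CPM. In EV it was at 138.7 and 109.4 CPM with Ad-GFP and at 135.5 and 94.4 CPM with Ad-Cre (log2 fold change −0.11, SE 0.28, adjusted p = 0.855). In the other constructs the fold changes were 0.04, 0.04, 0.09 and 0.00 for WT, MT194, MT486 and DMT, none called in either fit. Replicate 1 was higher than replicate 2 in all 10 groups for Mapk3, by a median ratio of 1.33, and likewise for Map2k1 (1.30), Akt1 (1.18), Pik3ca (1.17) and Pdpk1 (1.14), while Pik3cb was higher in 8 groups (1.06).

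Across the constructs, no member was called with Ad-GFP, where 0.00724% of genes (1) were called. There, 287 genes had an unadjusted p under 0.05 and DESeq2 called 48, with no member among them. With Ad-Cre no member was called either, against 2.90% of genes. With the block 3 members were called across constructs with Ad-Cre, against 37.9% of genes: Map2k1 (adjusted p = 0.000148), Mapk3 (0.00369) and Map2k2 (0.00514). For Mapk3 the means ran from 114.9 ± 29.1 CPM in EV to 154.2 ± 31.9 CPM in MT194 with Ad-Cre, and MT194 was also the highest construct with Ad-GFP (150.4 CPM, against 124.1 CPM in EV). For Map2k2 they ran from 62.6 ± 9.2 CPM in MT194 to 86.6 ± 10.3 CPM in WT.

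Relative to all genes, the rise of Pik3cb and Map2k1 was large but not extreme. In EV, 9.8% of genes had a larger log2 fold change than Pik3cb and 6.4% than Map2k1, and in DMT 4.7% and 6.1%. In WT the shares were 7.9% and 22.0%. The median log2 fold change of all genes lay between −0.01 and 0.01 in every construct.

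Across the 20 population libraries, members differed in how closely they tracked each other. These libraries share 2 experiments and 2 viruses, so the coefficients are descriptions. On the log2 CPM scale Akt1 and Map2k1 had a Pearson r of 0.907, Pdpk1 and Akt1 of 0.863, and Pik3cb and Map2k1 of 0.852, whereas Pik3cb and Map2k2 had −0.128 and Map2k1 and Map2k2 0.107. Among 9439 genes that averaged 10 CPM or more, the closest to Pik3cb were Polr1e (0.972), a subunit of RNA polymerase I, and Sdpr (0.967), a caveola protein. The closest to Map2k1 were Pgpep1 (0.978), a peptidase, and Cdk9 (0.976), the kinase subunit of the positive elongation factor that releases paused polymerase. Akt1 was closest to Mras (0.974), a RAS-related GTPase, and Mllt1 (0.969). Pik3ca was closest to Txnl1 (0.956) and Ube2g1 (0.955), Pdpk1 to Psme3 (0.950) and Gnpnat1 (0.943), Map2k2 to Psmb4 (0.945) and Lrrc20 (0.942), and Mapk3 to Hnrnpul1 and Capns1 (both 0.952).

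The wider pathways were described with 8 lists of 122 other genes, 118 of them tested in the populations. Counts are set beside the share of all genes called in the same comparison: 13.0% in EV, 0.0217% in WT, 4.49% in MT194, 2.54% in MT486 and 10.8% in DMT. In WT no gene of any list was called without the block. The lists, like the members, were chosen with results of these data known. With only the 4 libraries of a construct fitted, 239 of all genes were called in EV, 1 in WT, 0 in MT194, 5 in MT486 and 489 in DMT. With the block, which called 43.0% of all genes in EV, 5.61% in WT, 26.7% in MT194, 23.2% in MT486 and 40.7% in DMT, the lists together had 56.8%, 6.78%, 41.5%, 38.1% and 56.8% of their 118 genes called, and blocked counts of a list are to be read against these shares of all genes. Of the up to 4 called genes per list and comparison with the largest change, single calls in populations and clones were lost in 253 of 506 fits that left out 1 library, in 38 of 50 with only the 4 libraries of the construct and in 18 of 78 without the filter on low counts.

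Among the other PI3K subunits, the called genes fell. Of 8 tested, 2 fell in EV, 1 in MT194 and 3 in DMT, and none rose. Pik3r3, a regulatory subunit, was at 31.3 and 39.1 CPM in EV with Ad-GFP and at 19.5 and 17.0 CPM with Ad-Cre (log2 fold change −0.95, SE 0.19, adjusted p = 0.00534), and it fell by 0.73 on the log2 scale in MT194 and by 0.87 in DMT. Pik3c2b, a class II catalytic subunit, fell by 0.91 in EV and by 1.00 in DMT, and Pik3r5 fell by 0.57 in DMT. With the block 3 were called in EV (2 lower), 5 in MT194 (4 lower), 1 in MT486 (lower) and 4 in DMT (3 lower). The direction of most was opposite to that of Pik3cb. Of 11 tested genes that restrain PI3K-AKT signaling, such as lipid phosphatases, none was called in any construct, and with the block 4 were called in EV (all lower), 3 in MT194 (all lower), 2 in MT486 (all lower) and 6 in DMT (5 lower).

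Downstream of PI3K, 1 of 22 AKT-mTOR kinases and substrates was called in each of EV, MT194, MT486 and DMT, and it was Sgk1 each time. Sgk1 encodes a kinase related to AKT that is also activated by PDK1. It was at 57.2 and 47.5 CPM in EV with Ad-GFP and at 174.1 and 184.1 CPM with Ad-Cre (log2 fold change 1.77, SE 0.21, adjusted p = 0.000210). The rise was 1.98 in DMT, 1.05 in MT194 and 0.92 in MT486. The median fold change of the list was 0.07 in EV and 0.07 in DMT. With the block 9 of the 22 were called in EV (6 higher), 2 in WT (both higher), 5 in MT194 (3 higher), 8 in MT486 (5 higher) and 9 in DMT (6 higher). In EV that is 40.9% of the list beside 43.0% of all genes, and in DMT 40.9% beside 40.7%. The share was 9.09% in WT beside 5.61%, 22.7% in MT194 beside 26.7%, and 36.4% in MT486 beside 23.2%.

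FOXO factors are held out of the nucleus by AKT, and their known targets moved in both directions. Of 12 tested targets, 6 rose and 2 fell in EV, 2 rose and 1 fell in MT194, 1 fell in MT486, and 3 rose and 1 fell in DMT. Sesn1, a stress-induced inhibitor of mTOR signaling, was at 84.6 and 69.0 CPM in EV with Ad-GFP and at 26.9 and 21.2 CPM with Ad-Cre (log2 fold change −1.67, SE 0.20, adjusted p = 0.000206), and it also fell by 1.74 in DMT, by 1.18 in MT194 and by 1.10 in MT486. Irs2, an adaptor of the insulin receptor, rose by 1.33 in EV and 1.12 in DMT, Bcl6 by 0.96 and 0.86, and Gadd45a by 0.87 in EV. The list's median was 0.34 in EV and −0.05 in DMT. With the block 10 were called in EV (6 higher), 1 in WT (lower), 5 in MT194 (3 higher), 6 in MT486 (3 higher) and 9 in DMT (5 higher).

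Above MEK, 2 of 22 RAS-RAF genes were called in EV, 1 in MT194 and 2 in DMT, all lower. Gab1, a docking protein that links receptors to both PI3K and RAS, was at 96.9 and 76.6 CPM in EV with Ad-GFP and at 47.6 and 40.6 CPM with Ad-Cre (log2 fold change −0.97, SE 0.15, adjusted p = 0.00115). It fell by 0.99 in DMT and by 0.61 in MT194. Ksr1, a scaffold that brings RAF to MEK, fell by 0.86 in EV and by 0.69 in DMT. With the block 10 of the 22 were called in EV (4 lower), 1 in WT (higher), 8 in MT194 (4 lower), 6 in MT486 (1 lower) and 11 in DMT (6 lower), in both directions. The share was 45.5% in EV and 36.4% in MT194, beside 43.0% and 26.7% of all genes. Of 15 scaffolds and ERK substrates, 1 was called in 1 construct: Mknk1, a kinase activated by ERK, fell by 0.51 in DMT (adjusted p = 0.0392). The block called 8 of the 15 in EV, 7 in MT194, 6 in MT486 and 7 in DMT, in both directions.

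Among transcripts known to follow ERK activity, the called genes rose. ERK activity itself was not measured in these libraries, and these RNA levels do not stand in for it. By protein blots, the study reported less phosphorylated MEK and ERK in Nelfb knockout MEFs, and its relation to these transcripts was not tested. Of 14 tested, 8 were called higher in EV, 3 in MT194, 2 in MT486 and 8 in DMT, and none lower; with the block 13, 11, 11 and 13 were called, and 4 in WT. The medians of the list were 1.19 in EV, 0.79 in MT194, 0.63 in MT486, 1.12 in DMT and 0.27 in WT, beside medians of all genes near 0. Fosl1, a FOS-related factor, rose by 2.56 in EV and 2.59 in DMT. Dusp4, a phosphatase that acts on ERK, was at 6.2 and 4.8 CPM in EV with Ad-GFP and at 31.2 and 24.0 CPM with Ad-Cre (log2 fold change 2.33, SE 0.27, adjusted p = 0.000197). Dusp5 and Etv4 rose by 2.30 and 1.97 in EV. Spry4, a feedback inhibitor of the pathway, rose by 2.05 in DMT, 1.34 in MT194 and 1.11 in MT486.

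Of 14 kinases of the related JNK and p38 pathways, 1 rose and 3 fell in EV, 2 fell in MT194, 1 fell in MT486 and 2 fell in DMT. Map3k5 fell by 0.98 in EV, by 0.62 in MT194 and by 0.87 in DMT. Map2k7, a MEK of the JNK pathway, fell by 0.67 in EV, by 0.82 in MT194 and by 0.75 in DMT, in contrast to the rise of Map2k1. Map3k1 fell by 0.45 in EV and by 0.57 in MT486, and Mapk9, a JNK gene, rose by 0.53 in EV. With the block 10 were called in EV (6 lower), 5 in MT194 (4 lower), 5 in MT486 (4 lower) and 8 in DMT (5 lower).

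**Figure D4:**
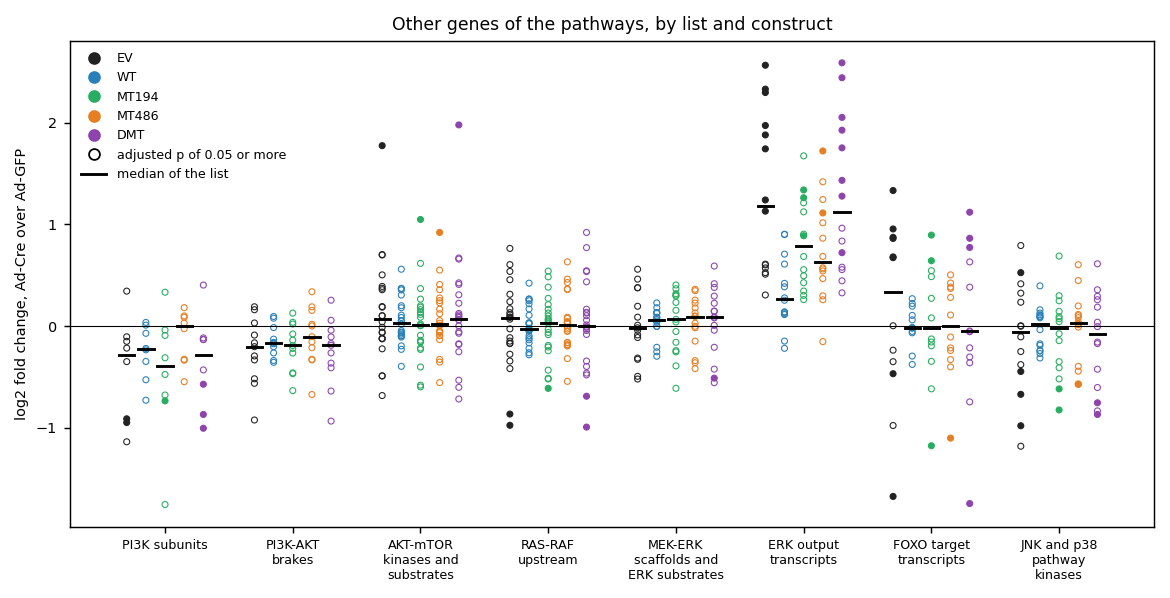
The log2 fold change of Ad-Cre over Ad-GFP (y axis) for each tested gene of the 8 pathway lists (x axis), by construct (color); filled points have an adjusted p under 0.05 and bars are list medians. The ERK output list lies above 0 in EV, MT194 and DMT for all 14 genes, with medians of 1.19, 0.79 and 1.12, while the medians of the other lists lie between −0.39 and 0.34.

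The stable clones asked how the members differ after long-term growth without endogenous NELFB. Before these results, 2 libraries labeled WT stand apart: WT clones 1 and 3 had 10.3 and 15.5 CPM of Nelfb, near the EV populations with Ad-Cre, while WT clone 2 had 109.4 CPM. They are called libraries labeled WT here, and the comparator is WT(N48), wild-type NELFB in pBabe (Nelfb 241.3, 127.3 and 56.3 CPM). The vector also differs between pBabe (WT(N48), Δ-C60) and pLenti clones, and vector and construct cannot be told apart for the latter. MT486 clones 1 and 2 differed from each other by 5.06 times the sampling noise, the least of 25 replicate pairs (next 32.4), and stayed 2 samples.

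In the comparisons of clone groups with WT(N48), no member was called. The shares of genes called were 0% for Δ-C60 (with 1540 genes at an unadjusted p under 0.05 and 223 called by DESeq2), 5.86% for MT194, 0.287% for MT486 and 2.10% for the libraries labeled WT, and DESeq2 called no member either. These comparisons share the WT(N48) clones. When any difference among the 5 groups was tested, 3 members were called, Map2k2 (adjusted p = 0.0450), Pik3ca (0.0451) and Pik3cb (0.0462), against 11.6% of genes. Each lies just under the threshold. Without WT clones 1 and 3 the calls of all 3 members were lost. That fit leaves 1 WT clone, so the loss does not show that they rested on clones 1 and 3. Leaving out 1 clone in turn kept the Map2k2 call in 5 of 15 fits, the Pik3ca call in 4 and the Pik3cb call in 3.

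**Figure D5:**
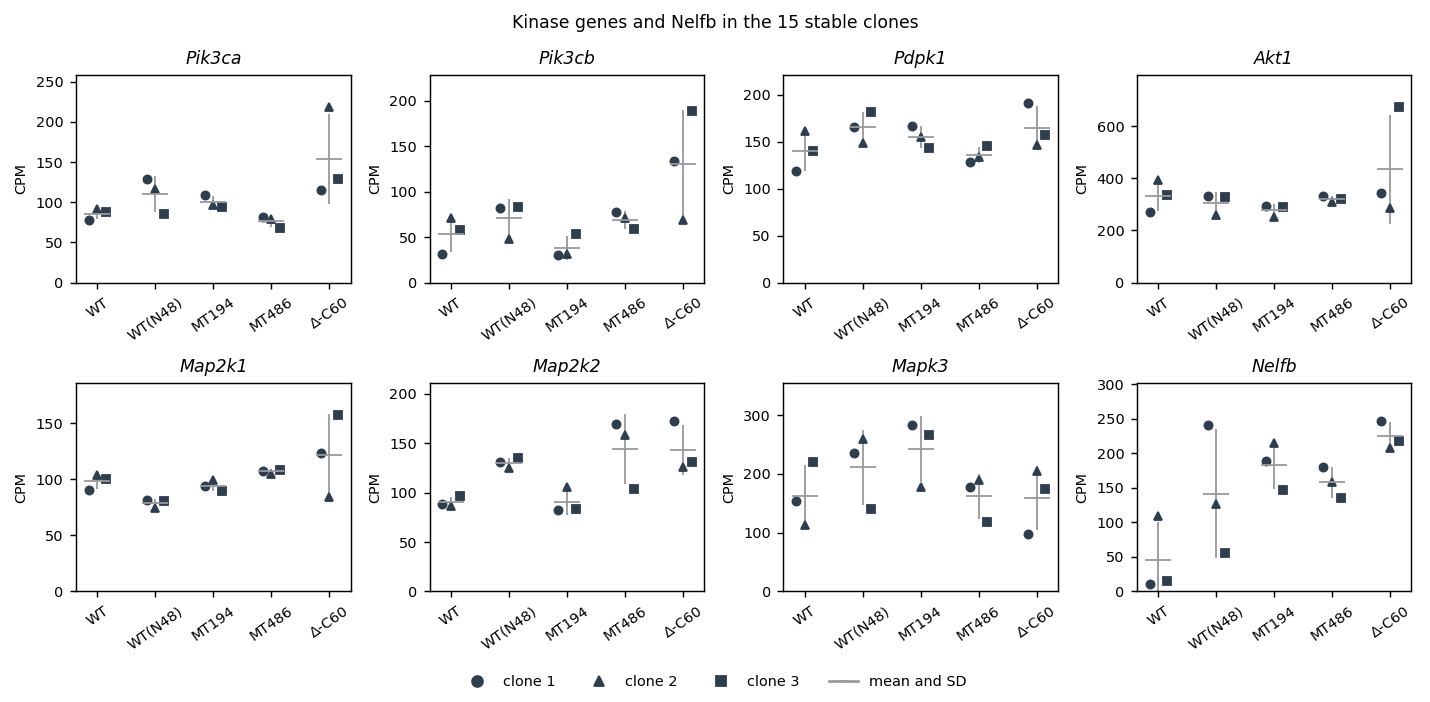
Levels of the 7 kinase genes and Nelfb in the 15 stable clones, in CPM on linear axes from 0, by group; symbols are clones 1 to 3, and gray lines are the mean and 1 SD (n = 3). Δ-C60 clone 3 is the highest clone for Pik3cb (188.5 CPM), Akt1 (673.6 CPM) and Map2k1 (157.0 CPM), and Nelfb is at 10.3 and 15.5 CPM in libraries 1 and 3 labeled WT.

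Pik3cb spanned the widest range of the members in the clones as a ratio of highest to lowest clone (6.20). It was at 134.0, 69.0 and 188.5 CPM in Δ-C60, 82.6, 48.3 and 83.5 CPM in WT(N48), 77.8, 70.6 and 58.7 CPM in MT486, 32.0, 71.1 and 57.4 CPM in the libraries labeled WT, and 30.4, 31.1 and 53.2 CPM in MT194. Each group overlapped the next in order of means. Against WT(N48) the log2 fold change was 0.87 for Δ-C60 (SE 0.38, adjusted p = 0.404) and −0.90 for MT194 (SE 0.38, adjusted p = 0.153). The lowest clone, at 30.4 CPM, was above all Ad-GFP populations, whose highest Pik3cb value was 26.3 CPM; populations and clones were scaled separately and this difference was not tested.

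Pik3ca was at 115.2, 218.0 and 128.4 CPM in Δ-C60, 128.8, 115.9 and 85.3 CPM in WT(N48), 108.7, 97.1 and 94.3 CPM in MT194, 78.0, 91.4 and 88.2 CPM in the libraries labeled WT, and 81.5, 78.7 and 68.1 CPM in MT486. The MT486 clones were lower than WT(N48) with no overlap (log2 fold change −0.53, SE 0.22, adjusted p = 0.280). In Δ-C60 the clone with the most Pik3ca, clone 2, had the least Pik3cb. In RPKM, Pik3cb over Pik3ca averaged 1.24 ± 0.75 in Δ-C60, 1.14 ± 0.06 in MT486, 0.86 ± 0.36 in WT(N48), 0.77 ± 0.24 in the libraries labeled WT and 0.49 ± 0.19 in MT194 (SD, n = 3).

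For Map2k2 the clones of MT194 and the libraries labeled WT lay below those of WT(N48), but no difference from WT(N48) was called. WT(N48) was at 131.1, 124.9 and 135.0 CPM, Δ-C60 at 172.6, 126.3 and 131.3 CPM and MT486 at 169.9, 158.2 and 103.9 CPM. MT194 was at 82.9, 105.8 and 83.1 CPM and the libraries labeled WT at 89.0, 86.3 and 96.8 CPM. The log2 fold change against WT(N48) was −0.52 for MT194 (SE 0.19, adjusted p = 0.106) and −0.52 for the libraries labeled WT (SE 0.19, adjusted p = 0.142). With the libraries labeled WT as comparator, Δ-C60 was called for Map2k2 (0.66, adjusted p = 0.0492) and for Pik3ca (0.84, adjusted p = 0.0378), where 8.38% of all genes were called, and 2 of the 3 comparator libraries are those with low Nelfb.

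Map2k1 was lowest in WT(N48), at 81.3, 74.1 and 80.5 CPM, and every clone of the other groups was above these 3. It was at 123.7, 84.2 and 157.0 CPM in Δ-C60 (log2 fold change 0.63, SE 0.18, adjusted p = 0.246) and at 107.6, 104.7 and 108.5 CPM in MT486 (0.44, SE 0.18, adjusted p = 0.267). Without Δ-C60 clone 2 the Δ-C60 difference was 0.83 and was called (adjusted p = 0.0178). MT194 was at 93.9, 99.6 and 89.3 CPM and the libraries labeled WT at 90.2, 103.8 and 100.1 CPM. Map2k1 over Map2k2 in RPKM averaged 1.01 ± 0.02 in WT(N48), 1.30 ± 0.38 in MT486, 1.44 ± 0.49 in Δ-C60, 1.75 ± 0.16 in MT194 and 1.81 ± 0.17 in the libraries labeled WT.

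Akt1, Pdpk1 and Mapk3 showed no called difference among the clone groups. Akt1 was at 343.3, 286.5 and 673.6 CPM in Δ-C60, and between 250.2 and 391.7 CPM in the other 12 clones. Pdpk1 ranged from 119.2 to 191.0 CPM and Mapk3 from 98.5 to 282.5 CPM over all 15 clones, with every group overlapping the next in order of means. Δ-C60 clone 3, which was highest for Akt1, Pik3cb and Map2k1, also had the highest sum of 6 epithelial markers (102.3 CPM, with WT(N48) clone 1 next at 29.98 CPM). Of that sum 100.2 CPM was Krt19, while Epcam was at most 0.10 CPM and Krt8 at most 0.15 CPM in any clone. Its fibroblast markers summed to 11071 CPM. Pluripotent markers summed to 44.4 CPM in MT194 clone 3, of which Sox2 made up 43.7 CPM with Pou5f1 at most 0.047 CPM in any clone, and to at most 5.9 CPM in the other clones. Muscle markers summed to 13.8 CPM in MT194 clone 1, of which 13.1 CPM was Myod1, and to at most 4.1 CPM in the other clones. The part of these markers in the members' levels was not tested.

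Of 117 listed pathway genes tested in the clones, 7 (5.98%) were called in MT194 against WT(N48), close to the 5.86% of all genes, and 2 with the block. All 7 calls were lost with the libraries labeled WT as comparator. Etv4 was lost at a like difference in means: 17.9 CPM in MT194, against 56.2 CPM in the libraries labeled WT and 67.0 CPM in WT(N48). For Rictor the difference was smaller: 69.9 CPM in MT194, against 80.8 and 138.4 CPM. Rasa1, a GTPase-activating protein for RAS, was at 51.6, 53.5 and 53.6 CPM against 184.4, 148.7 and 97.8 CPM (log2 fold change −1.44, SE 0.22, adjusted p = 0.00619). Phlpp1, a phosphatase that acts on AKT, fell by 1.62 (adjusted p = 0.0307), and Ddit4, an inhibitor of mTOR, rose by 1.43 (adjusted p = 0.0352). Rictor, a subunit of the mTOR complex that phosphorylates AKT, fell by 0.99, Pik3c2b fell by 1.49 and Etv4 fell by 1.91. Rps6, a ribosomal protein gene with many processed copies whose reads a mapping-quality filter would remove, rose by 0.74 and is uncertain. DESeq2 called 19 listed genes in MT194 clones. In the libraries labeled WT, 1 listed gene was called against WT(N48) by edgeR and 10 by DESeq2. The edgeR call was the ERK substrate Rps6ka1 (1.10, adjusted p = 0.0473). By edgeR no listed gene was called in Δ-C60 or MT486 clones, with 12 and 16 at an unadjusted p under 0.05, and DESeq2 called 1 and 2. Among all 5 groups 12 listed genes (10.3%) were called, beside 11.6% of all genes, 3 with the block and 37 by DESeq2. They include Pik3ip1, an inhibitor of PI3K (adjusted p = 0.00860), Mras (0.00936), Rasa1 (0.0144) and Pik3c2a, a class II catalytic subunit (0.0390). Without WT clones 1 and 3, all of these calls and that of Rps6ka1 in the libraries labeled WT were lost. That fit leaves 1 WT clone, so the loss does not show that the calls rested on clones 1 and 3. For Rps6ka1 the remaining WT clone 2 was the highest of the 3, at 32.0 CPM against 24.6 and 22.2 CPM.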

How the data were processed

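The 35 libraries were poly(A)-selected, stranded TruSeq libraries read as single reads of 50 bases. Per the study's methods, the authors used Bowtie2, an aligner that leaves reads across exon junctions unsplit, against mm10, skipped reads of low mapping quality, and deposited HTSeq read counts per gene, which are raw counts; tool versions, annotation and strand setting are not given in the sources used here. Rows for reads on no gene (9.14% to 21.3%) or ambiguous reads (0.911% to 1.13%) were left out of library sizes. The deposited counts were tested with edgeR 4.0.16 (R 4.3.3; robust quasi-likelihood F test, TMM, filterByExpr), with populations and clones fitted apart and p-values adjusted by Benjamini-Hochberg over 13805 and 13223 genes; a call is an adjusted p under 0.05. SE is the absolute fold change over the root of F, and 95% intervals use the t quantile at the degrees of freedom of the fit. RPKM used GENCODE vM21 exon lengths. The fit and its calls were tested on simulated data. DESeq2 1.42.0, DESeq2 size factors, a fold threshold, no filter, a replicate block, fewer libraries, another comparator and leaving out each library were alternatives.

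Population libraries of the same replicate number (2 independent experiments, per the study) deviated together (r 0.420 to 0.730, over 0.1 in 45 of 45 pairs of groups), so they are pairs. The study describes the clones as independent; they derive from 1 cell line, and p-values measure the spread between clones. The members and lists were chosen with earlier results of these data known. Named genes are the 7 members, Nelfb, up to 4 called genes per list with the largest fold change, and the 2 genes most like each member by Pearson r of log2 CPM (prior count 2).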

Additional observations from a re-analysis of the deposited data

Results flagged for a closer look

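The effect of Ad-Cre on Dusp4, a phosphatase acting on ERK, differed between WT and EV populations: the WT effect minus the EV effect was −2.05 on the log2 scale (SE 0.38, edgeR adjusted p = 0.0299). DESeq2 and the replicate block also called it, but without 1 of the 8 libraries in turn it was kept only without the second WT library with Ad-GFP (adjusted p = 0.0324) and lost in the other 7 fits (0.0708 to 0.203), with differences of −2.30 to −1.62 in those 7. For Map2k1 the same difference was −0.79 (SE 0.14, edgeR adjusted p = 0.00120) with the replicate block. Dusp4 was the 1 listed gene, of 118, called for this difference without the block, and Map2k1 the 1 member called with it. With the block 30 of the 118 listed genes were called, among them 8 of 14 ERK output transcripts, all with a lower effect in WT, and DESeq2 called 12. Without the block the Map2k1 difference was not called (adjusted p = 0.417), and in that fit 0.681% of genes were called, against 17.3% with the block.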

How the results depend on the processing

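No called member changed direction under the alternatives run. Of 1407 values of members under these alternatives, 110 changed sign, none of them a called one. Counts of members called moved as follows. With the replicate block, which pairs libraries of 1 experiment, 4 were called in EV, 1 in WT, 4 in MT194, 2 in MT486 and 3 in DMT. It also called 1 for WT minus EV and 3 among constructs with Ad-Cre, as given beside the results. The 15 clones share only a number (r −0.285 to 0.408, 3 of 30 values over 0.1), and with the block 0 members were called among the clone groups (adjusted p 0.0666 to 0.0775). Fitting only the 4 libraries of a construct left 0 in EV, 0 in MT194, 0 in MT486 and 1 in DMT. Without the filter on low counts 0 were called in MT194 (Pik3cb, adjusted p = 0.0693), 1 in DMT (Map2k1, adjusted p = 0.0513) and 0 among the clone groups. With the libraries labeled WT as comparator, 2 were called in Δ-C60, and without WT clones 1 and 3, 0 among the clone groups. Leaving out 1 library in turn gave 0 to 2 members in EV, 0 to 1 in MT194, 0 in MT486, 1 in DMT, 0 to 1 in Δ-C60 (Map2k1, without Δ-C60 clone 2) and 0 to 4 among the clone groups, and 0 in the other comparisons. DESeq2, DESeq2 size factors and a fold threshold of 0.5 on the log2 scale left all 16 counts of members as they were.

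Counts over all genes moved more. With the block 5935 genes were called in EV, 775 in WT, 3687 in MT194, 3204 in MT486 and 5625 in DMT, and 239, 1, 0, 5 and 489 with only 4 libraries, against 1791, 3, 620, 350 and 1493. DESeq2 called 1128 in MT194, 876 in MT486, 447 for WT minus EV and 1501 among constructs with Ad-Cre (against 94 and 401 for the last 2), and 1799, 591, 1201 and 3860 in MT194, MT486 and WT-labeled clones and among clone groups (against 775, 38, 278 and 1530). The block called 2388 for WT minus EV and 5238 among constructs with Ad-Cre, 137 and 409 for MT194 and MT486 minus EV and 121 among constructs with Ad-GFP, but 395, 19, 102 and 652 in the same 4 clone comparisons. Leaving out 1 library gave 735 to 1064 in EV, 189 to 294 in MT194, 76 to 128 in MT486, 518 to 795 in DMT, 0 to 1 in WT, 5 to 40 for WT minus EV, 80 to 414 among constructs with Ad-Cre, 0 to 313 in Δ-C60, 57 to 1395 in MT194 clones, 2 to 91 in MT486 clones, 10 to 606 in the libraries labeled WT and 478 to 3036 among clone groups. Without the filter 52 genes were called for WT minus EV, 2 for MT486 minus EV, 3 among constructs with Ad-GFP and 472 in MT194 clones, and DESeq2 size factors gave 2 with Ad-GFP. With the libraries labeled WT as comparator 1108 genes were called in Δ-C60, 385 in MT194 and 0 in MT486 clones, and without WT clones 1 and 3, 178 among clone groups and 2 for the WT-labeled clone that remained. Leaving out 1 library lowered some counts and raised others, up to 3036 among clone groups against 1530. Why these counts moved was not tested. With 2 libraries a group, the SE of a member's fold change within a construct was 0.14 to 0.28 without the block, which limits what that fit resolves. Where SEs of both fits are given above, as for Pdpk1 in EV, the SE with the block was smaller. The fits with fewer libraries were run without the block.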
